A study of Mus musculus with 17 samples.

Results

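The 35 genes described here encode the contractile filaments of smooth muscle, the proteins that regulate them and anchor them to the cell surface, the calcium store, and myocardin, a coactivator of muscle transcription. They were chosen by name: a row of the deposited count table belongs to them where its symbol equals a symbol on a written list. All 35 listed symbols were found among the 23719 genes of the table. The table comes from bulk RNA sequencing of colon tissue of 17 male C57BL/6 mice that were 32 to 34 weeks old, 9 in the Control group and 8 in the group named GWI, after Gulf War illness. For GWI, mice took PB (pyridostigmine bromide, which blocks acetylcholinesterase in a reversible way) from the water they drank, 2 mg/kg over 7 days, and then went 21 days without it, while Control mice received water alone. The experiment ended on day 30 in both groups. The methods name no layer of the colon wall for the RNA samples, so the share of muscle in each piece is unknown. The libraries held 16744096 to 20741212 counts in Control and 16293537 to 18389686 counts in GWI.

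Smooth muscle contracts when calcium from outside the cell or from its internal store lets calmodulin switch on a kinase that phosphorylates the regulatory light chain of myosin, and a phosphatase reverses this step. Myosin then pulls on actin filaments that are held at dense bodies and at plaques of the membrane, and in the colon the muscle layers that contract this way mix the content and move it along. Many of these genes are targets of serum response factor, a DNA-binding protein that acts together with myocardin through a short element called the CArG box.

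In the GWI colons most of these genes were lower than in the Control colons, while the Control mice themselves differed widely. The summed level of the 35 genes, in counts-per-million (CPM) of a library size scaled by the TMM method, was lowest at 7808, had a median of 20840.5 and was highest at 41957 in Control, and was 7149, 9611 and 20705 in GWI. Control 6 and Control 1 stood highest, and Control 3, Control 7, Control 8 and Control 9 lay within the range of the GWI mice, so the groups overlapped. GWI 5 and GWI 8 were the highest GWI mice, and all 8 GWI mice lay below the Control median. As a share of all counts of a library, the 35 genes took from 0.623% in Control 9 to 4.57% in Control 6, and from 0.732% to 2.02% in GWI. In bulk tissue, fewer muscle cells and less RNA per muscle cell cannot be told apart.

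**Figure D1:**
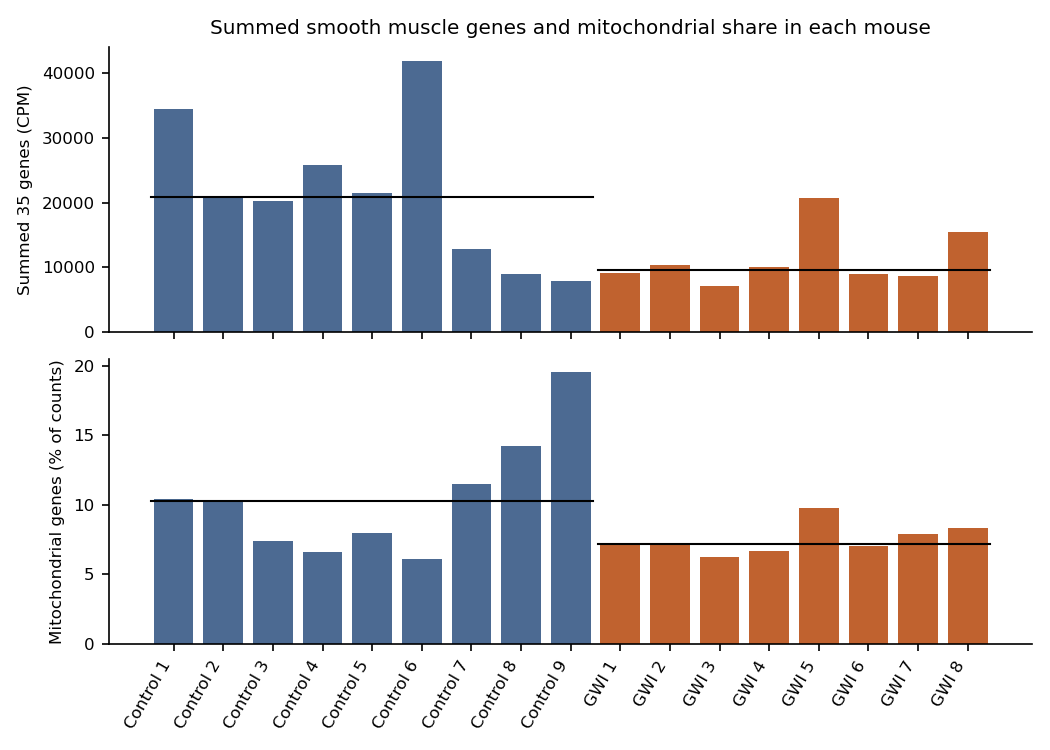
Summed level of the 35 genes in CPM (upper bars) and share of mitochondrial counts in percent (lower bars) for each of the 9 Control and 8 GWI mice, with black lines at the group medians. The summed level runs from 7149 in GWI 3 to 41957 in Control 6. The lowest Control mouse is Control 9 at 7808, which also has the highest mitochondrial share, 19.5%.

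All 35 genes passed the filter on low counts and were tested. In the quasi-likelihood test of edgeR, adjusted after Benjamini and Hochberg over 14146 tested genes, 21 of the 35 fell in GWI at an adjusted p under 0.05, where 13.5% of all tested genes fell. None rose, where 13.4% of all tested genes rose: the count of risen members was 0 by edgeR, 0 at an unadjusted p under 0.05, 0 by the DESeq2 Wald test and 0 by limma-voom. All 35 fitted fold changes were negative, with a median of -0.91 on the log2 scale beside -0.06 over all tested genes. The called genes lay between -1.21 for Ppp1r14a and -0.65 for Cav1, and 28 of the 35 had an unadjusted p under 0.05. Of the 21 calls, 6 had an adjusted p between 0.04 and 0.05. In no member did every GWI mouse lie below every Control mouse, which held for 0.523% of all tested genes. The number of calls changed when 1 mouse was left out. It fell to 12 without Control 1, 12 without Control 4, 10 without Control 6, 12 without GWI 1, 12 without GWI 2, 9 without GWI 3, 10 without GWI 4, 10 without GWI 6 and 9 without GWI 7, and with the replicate number as a block it was 10. The number was 15 without Control 2, and 14 without Control 3 or without Control 5. It rose to 22 without Control 7, 25 without Control 8, 26 without Control 9, 29 without GWI 5 and 22 without GWI 8. Lower calls over all tested genes also changed, from 1903 to 1309 without GWI 7 and to 2295 without Control 1. With 1 mouse left out, the median log2 fold change of the 35 genes lay between -1.08 and -0.70. Without any 1 of the 17 mice, 9 genes kept their call: Myl9, Mylk, Ppp1r14a, Tagln, Dmd, Cav1, Pdlim3, Csrp1 and Pln.

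Both muscle RNA and signs of tissue make-up varied among the mice. Mitochondrial transcripts took 6.11% to 19.5% of counts in Control and 6.26% to 9.76% in GWI, with the highest shares in Control 9 (19.5%) and Control 8 (14.2%), which had the lowest summed muscle levels of the Control group. Across the 9 Control mice the log2 summed level and the mitochondrial share had a Pearson r of -0.84 and a Spearman coefficient of -0.78, and across the 8 GWI mice 0.90 and 0.69. These values are a description of points that share a library and a piece of tissue. With Control 9 and Control 8 left out together, an alternative chosen after the data had been seen, 29 of the 35 genes were called lower. With the mitochondrial share as a covariate, also chosen after the data had been seen, 26 were called lower. The part of the mitochondrial share in the difference between the groups was not tested.

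Markers of the colon epithelium were higher in part: the median of 12 genes was 0.34 in log2 fold change, and 3 of them had a negative one. Of these 12, 4 rose (Cdh1, Vil1, Epcam and Muc2), where 13.4% of all tested genes rose, and 0 fell by edgeR, with 0 lower at an unadjusted p under 0.05, 0 by DESeq2 and 0 by limma-voom. Their summed level was lowest at 29336 CPM in Control 7, had a median of 34929 and was highest at 45974 in Control 9, and in GWI it was 32529 in GWI 8, 41067 at the median and 50925 in GWI 2. Car1, a carbonic anhydrase of colonocytes and the most abundant gene of the list, had a median of 12049 CPM in Control and 11419 in GWI. The number of risen markers was 8 without Control 1 and 2 without any 1 of Control 3, Control 4, Control 6, Control 8, GWI 2, GWI 3, GWI 4, GWI 6 and GWI 7. Within Control the log2 summed epithelial and muscle levels had a Pearson r of -0.50 and a Spearman coefficient of -0.35 (n = 9), and within GWI of -0.65 and -0.40 (n = 8). With a score of these markers as a covariate, 23 of the 35 muscle genes were called lower, 17 of them among the 21. The part of epithelial content in the lower muscle levels was not tested.

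Markers of other cells of the wall were lower in part, where 13.5% of all tested genes fell. Of 7 mural cell markers 3 fell (Rgs5, the most abundant, Kcnj8 and Abcc9), and their summed level was 552 to 1936 CPM in Control, with a median of 922, and 314 to 769.8 in GWI, with a median of 417. Of 7 fibroblast markers, with Col3a1 the most abundant, only Dcn fell, a share close to that of all tested genes, and the sum was 269 to 882 CPM in Control (median 544) and 259 to 735 in GWI (median 427). Of 6 endothelial markers, with Pecam1 the most abundant, Egfl7 and Kdr fell, and the sum was 43.5 to 166 CPM in Control (median 101) and 47.7 to 110.2 in GWI (median 75.2). Control 6 was the highest Control mouse for the mural and endothelial sums, as it was for the muscle genes. Without 1 mouse, the number fallen was 1 for mural markers (Control 2, Control 3, Control 4, Control 6, GWI 1, GWI 2, GWI 3, GWI 4, GWI 6 or GWI 7), 1 for endothelium (Control 6, GWI 3, GWI 4 or GWI 6) and 2 for fibroblasts (GWI 5). No marker of these lists was at 0 in all mice, and their part in the muscle result was not tested.

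As a check on the name of the gene set, markers of other muscle were low. Of 16 skeletal muscle markers, 8 had too few counts to be tested, among them the fast myosins Myh1, Myh2 and Myh4, and none of these 8 exceeded 76 counts in a library. Of the 8 tested ones 1 fell, Ckm, the most abundant, a share close to the 13.5% of all tested genes that fell. The list of 16 summed to 19.0 to 86.4 CPM in Control and 21.7 to 65.0 in GWI. Of 6 heart markers 3 had too few counts to be tested, and of these Nppa and Myh6 had at most 7 and 5 counts in any library. The list of 6 summed to 7.14 to 31.4 CPM in Control and 6.62 to 23.2 in GWI. Its most abundant gene, Tnnt2, had a Control median of 13.2 CPM, above that of the member Casq2 at 11.2.

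**Figure D2:**
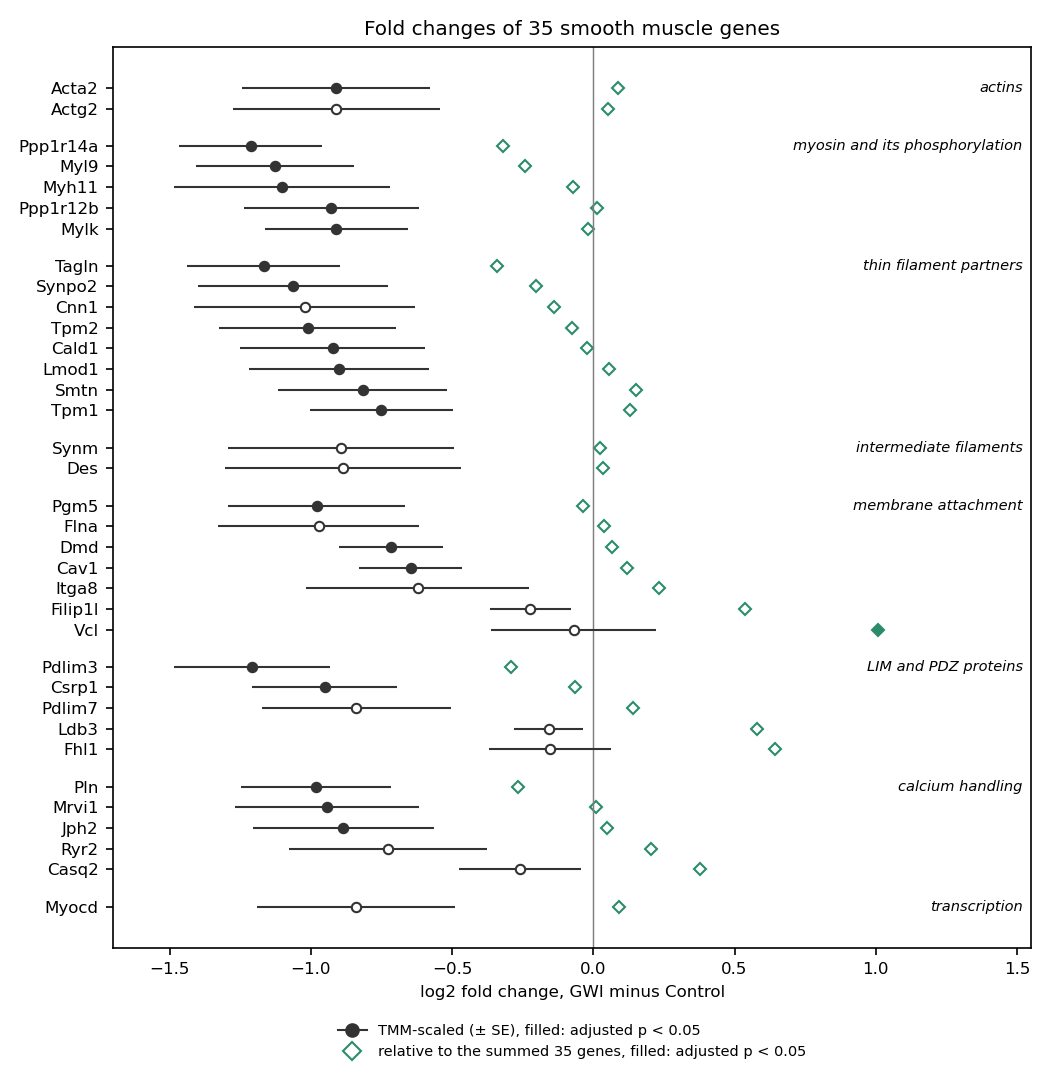
Log2 fold change of GWI against Control for each of the 35 genes, grouped by role, with 9 Control and 8 GWI mice. Circles with bars are the estimate and its standard error on TMM-scaled libraries, diamonds without bars are the change relative to the summed counts of the 35 genes, and filled symbols have an adjusted p under 0.05: all circles lie below 0, and Vcl has the only filled diamond.

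The actins of the list form the thin filaments of vascular and visceral muscle. Acta2, smooth muscle alpha-actin (chr19:34241090-34255590), had 468 CPM in the lowest Control mouse, a median of 2017 and 3803 in the highest, and 616, 851 and 1486 in GWI. The highest mice were Control 6 and GWI 5, Control 8 and Control 9 lay below the GWI median, and 6 Control mice lay above all GWI mice. Acta2 fell by 0.91 on the log2 scale (SE 0.33; edgeR adjusted p = 0.0496). Its call was lost without any 1 of Control 1 to Control 6, GWI 1 to GWI 4, GWI 6 and GWI 7, where the adjusted p reached 0.104. Actg2, the gamma-actin of gut muscle (chr6:83512905-83536265), had a Control median of 1521 CPM and a GWI median of 698, with a log2 fold change of -0.91 and an edgeR adjusted p of 0.0716. It was not called, and its adjusted p came under 0.05 without any 1 of Control 8, Control 9 and GWI 5, down to 0.0191. The coding sequences of actin genes are alike, so reads that fit several of them are missing from counts of unique hits.

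Myosin and the enzymes that set its phosphorylation were the role in which 5 of 5 genes fell. Myh11, the smooth muscle myosin heavy chain (chr16:14194535-14291372), ranged from 701 CPM over a median of 2699.8 to 7005 in Control and from 740.2 over 1205 to 2437 in GWI. Control 9 was the lowest of all 17 mice and Control 6 the highest, so the GWI range lay within the Control range. The log2 fold change of Myh11 was -1.10 (SE 0.38; edgeR adjusted p = 0.0407). Myl9, the regulatory light chain that the kinase phosphorylates (chr2:156775420-156781658), had 546, 1395 and 2276 CPM at the lowest, median and highest Control mouse and 386, 528 and 957 in GWI. Only Control 7, Control 8 and Control 9 lay within the range of the GWI mice, and 5 GWI mice lay below every Control mouse. Myl9 fell by 1.13 (SE 0.28; edgeR adjusted p = 0.00869).

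Mylk encodes the myosin light-chain kinase (chr16:34745210-35002420). Its level was 755, 1548 and 3095 CPM in Control and 569, 739.8 and 1242 in GWI, and it fell by 0.91 on the log2 scale (SE 0.25; edgeR adjusted p = 0.0150). Control 6 stood far above the other Control mice, and 6 Control mice exceeded all GWI mice. The phosphatase side moved in the same direction. Ppp1r12b, a subunit that brings the phosphatase to myosin, had 87.1, 203 and 529 CPM in Control and 80.1, 107 and 209 in GWI, a change of -0.93 (SE 0.31; edgeR adjusted p = 0.0345). Control 8 was its lowest Control mouse and lay below the GWI median. Ppp1r14a, which encodes CPI-17, an inhibitor of the same phosphatase (chr7:29289308-29293801), had 28.1, 60.2 and 109 CPM in Control and 21.9, 25.3 and 46.1 in GWI, and fell by 1.21 (SE 0.25; edgeR adjusted p = 0.00348). In this gene 6 GWI mice lay below all Control mice and 6 Control mice lay above all GWI mice. The call of Myh11 was lost without any 1 of Control 1 to Control 6, GWI 1 to GWI 4, GWI 6 and GWI 7 (adjusted p up to 0.0896), and that of Ppp1r12b without any 1 of Control 1, Control 4, Control 6, GWI 1 to GWI 4, GWI 6 and GWI 7 (up to 0.0734). Kinase, phosphatase subunit and phosphatase inhibitor thus all had less RNA in GWI, while the activity of the enzymes was not measured.

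Along the thin filament, 7 of 8 genes fell. Tagln, transgelin or SM22-alpha, an early marker of smooth muscle (chr9:45929619-45936058), had 383, 736 and 1249.8 CPM in Control and 200.5, 279.6 and 639 in GWI. Only Control 7, Control 8 and Control 9 lay below the highest GWI mouse, and 6 GWI mice lay below every Control mouse. Tagln fell by 1.17 on the log2 scale (SE 0.27; edgeR adjusted p = 0.00628). The tropomyosins Tpm1 and Tpm2 lie along actin and govern access of myosin to it. Tpm1 (chr9:67022590-67049406) had 903, 1949 and 3347 CPM in Control and 828, 1049 and 1986 in GWI, a change of -0.75 (SE 0.25; edgeR adjusted p = 0.0356), and Control 8 and Control 9 lay below the GWI median. Tpm2 had 244, 913 and 1507 CPM in Control and 265, 369.5 and 759 in GWI, a change of -1.01 (SE 0.31; edgeR adjusted p = 0.0248). Its lowest mouse of all was Control 9, and 6 Control mice exceeded all GWI mice.

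Caldesmon and calponin bind actin and restrain myosin. For Cald1 the level was 215, 446 and 1049.5 CPM in Control and 165, 237 and 593 in GWI, a change of -0.92 (SE 0.33; edgeR adjusted p = 0.0435), with Control 6 and GWI 5 highest. Cnn1, calponin, had medians of 776 CPM in Control and 346 in GWI and was not called (log2 fold change -1.02, edgeR adjusted p = 0.0597); GWI 5 at 1206 CPM lay above the Control median. Lmod1, leiomodin, which starts new actin filaments, had 35.9, 114 and 241 CPM in Control and 40.8, 52.2 and 102 in GWI, with a change of -0.90 (SE 0.32; edgeR adjusted p = 0.0432). Smtn, smoothelin, a protein of contractile muscle cells, had 70.0, 232 and 423 CPM in Control and 85.4, 111 and 202 in GWI, with a change of -0.82 (SE 0.30; edgeR adjusted p = 0.0493). In both Lmod1 and Smtn the lowest mouse of all was Control 9, and 6 Control mice exceeded all GWI mice. Synpo2, an actin-bundling protein of the dense bodies and Z-discs, had 165, 336 and 995 CPM in Control and 118, 173 and 456 in GWI, with a change of -1.06 (SE 0.34; edgeR adjusted p = 0.0274). Control 8 lay below the GWI median of Synpo2, and GWI 5 above the Control median.

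Several of the calls along the thin filament changed when 1 mouse was left out. Lmod1 and Smtn lost theirs without any 1 of Control 1 to Control 6, GWI 1 to GWI 4, GWI 6 and GWI 7, with adjusted p up to 0.0923 and 0.101. Cald1 and Tpm1 lost theirs without any 1 of Control 1, Control 3 to Control 6, GWI 1 to GWI 4, GWI 6 and GWI 7, with adjusted p up to 0.0894 and 0.0712. For Tpm2 this held without GWI 3 and without GWI 7 (up to 0.0521), and for Synpo2 without any 1 of Control 6, GWI 3, GWI 4, GWI 6 and GWI 7 (up to 0.0580). Cnn1 gained a call without any 1 of Control 8, Control 9 and GWI 5, with an adjusted p down to 0.00998. Tagln was called in each of these 17 fits.

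The intermediate filaments of muscle, which tie dense bodies to each other, gave no call. Des, desmin (chr1:75360329-75368579), had 365, 1339 and 3676 CPM in Control and 479.6, 609.8 and 2383 in GWI, with Control 1 highest and Control 9 lowest in Control. GWI 5 at 2383 CPM was far above the next GWI mouse, and 7 of 8 GWI mice were below the Control median. The log2 fold change of Des was -0.89 (SE 0.42; edgeR adjusted p = 0.117). Synm, synemin, which forms filaments together with desmin, had medians of 245 and 157 CPM and a change of -0.89 (SE 0.40; edgeR adjusted p = 0.101). Of these genes 0 were called by edgeR and 0 by DESeq2, while both had an unadjusted p under 0.05 and limma-voom called both lower. Limma-voom called 4180 of all 14146 tested genes lower, beside 1903 by edgeR. Without GWI 5, edgeR called both genes, with adjusted p of 0.0227 for Des and 0.0208 for Synm.

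**Figure D3:**
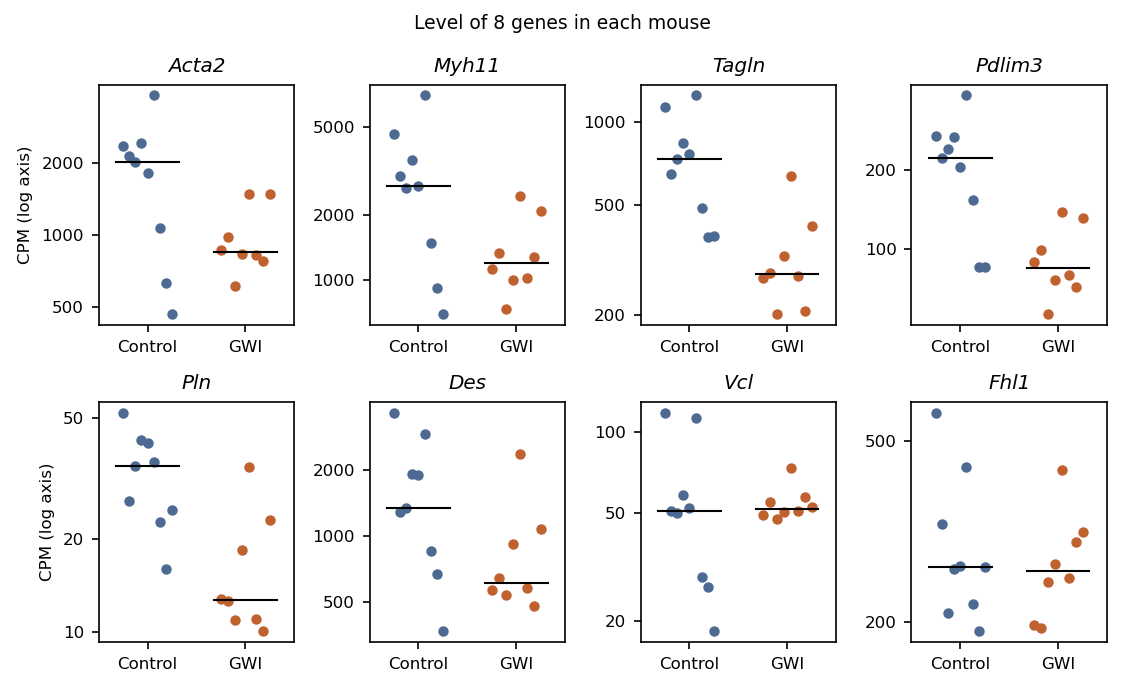
Level of 8 of the 35 genes in each of the 9 Control and 8 GWI mice, in CPM on a log axis, with a black line at each group's median. For Acta2, Myh11, Tagln, Pdlim3, Pln and Des the GWI median lies below the Control median, for Vcl and Fhl1 the medians lie close together, and the groups overlap in all 8.

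Genes that attach the filaments to the membrane were mixed, with 3 of 7 called lower. Dmd, dystrophin, which links actin to the membrane complex of muscle (chrX:82948870-85206141), had 29.9, 41.8 and 92.8 CPM in Control and 22.9, 26.7 and 36.7 in GWI. Only Control 5, Control 7 and Control 8 lay within the GWI range, and Control 6 was far above the rest. Dmd fell by 0.72 on the log2 scale (SE 0.18; edgeR adjusted p = 0.0106). Cav1, the coat protein of caveolae, had 88.8, 145 and 254 CPM in Control and 68.3, 91.0 and 140.4 in GWI, a change of -0.65 (SE 0.18; edgeR adjusted p = 0.0162). Its highest GWI mouse was GWI 7 and not GWI 5, and 6 Control mice exceeded all GWI mice. Pgm5, aciculin, an adhesion protein that binds dystrophin, had 95.3, 233 and 700.2 CPM in Control and 85.0, 124 and 234 in GWI, a change of -0.98 (SE 0.31; edgeR adjusted p = 0.0280). GWI 8 lay just above the Control median of Pgm5 and Control 8 below its GWI median. The call of Pgm5 was lost without any 1 of Control 6, GWI 3, GWI 4, GWI 6 and GWI 7, with adjusted p up to 0.0573.

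Flna, filamin A, which crosslinks actin and joins it to integrins (chrX:74223461-74249820), had 463, 1456 and 3720.2 CPM in Control and 491, 699 and 1439 in GWI. All GWI mice lay below the Control median, and Control 9 was the lowest of the 17 mice. The log2 fold change of Flna was -0.97 (SE 0.36), and its edgeR adjusted p of 0.0502 missed the threshold. It came under 0.05 without any 1 of Control 7, Control 8, Control 9, GWI 5 and GWI 8, down to 0.0184. Vcl, vinculin, the protein that couples integrins to actin (chr14:20929398-21033676), differed from its neighbours. It had 18.3, 51.0 and 117 CPM in Control and 47.5, 51.8 and 73.5 in GWI, and the GWI mice lay close together inside the wide Control range. Its log2 fold change was -0.07 (SE 0.29; edgeR adjusted p = 0.876), and it was 0.13 without Control 1 and 0.11 without Control 6. Filip1l had medians of 91.9 CPM in Control and 77.6 in GWI with a change of -0.22, and Itga8, an integrin subunit of smooth muscle, had 8.00 and 4.19 with a change of -0.62, and neither was called.

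Among the LIM and PDZ proteins, adaptors that sit on actin and alpha-actinin, 2 of 5 fell. Pdlim3 (chr8:45885461-45919548) had 84.9, 223 and 388 CPM in Control and 55.9, 84.0 and 138 in GWI. Of the Control mice, 7 lay above all GWI mice, and only Control 8 and Control 9 lay below the highest of them. Pdlim3 fell by 1.21 on the log2 scale (SE 0.27; edgeR adjusted p = 0.00553). Csrp1, a LIM protein of smooth muscle (chr1:135720061-135752232), had 477, 1028 and 1834 CPM in Control and 384, 468 and 854 in GWI, a change of -0.95 (SE 0.26; edgeR adjusted p = 0.0133). In Csrp1, 6 Control mice lay above all GWI mice and 5 GWI mice below all Control mice. Pdlim7 had medians of 103 CPM in Control and 45.7 in GWI, and its change of -0.84 was not called (edgeR adjusted p = 0.0684). Its adjusted p came under 0.05 without any 1 of Control 8, Control 9 and GWI 5, down to 0.0198. Pdlim7 was also called in 5 of the 12 other fits. Fhl1 had 190.2, 263 and 576 CPM in Control and 194, 259 and 430.2 in GWI, so that the medians were close and the Control range was wider, with 2 Control mice above all GWI mice. Its log2 fold change was -0.15 (SE 0.22; edgeR adjusted p = 0.610), and it was 0.019 without Control 1. Ldb3 had medians of 25.6 and 23.5 CPM, a change of -0.16 and no call.

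Of the genes of the calcium store, 3 of 5 fell. Pln, phospholamban, the brake on the calcium pump of the store (chr10:53337667-53345987), had 16.04, 34.8 and 51.9 CPM in Control and 10.0, 12.7 and 34.6 in GWI. Of the GWI mice, 5 lay below every Control mouse, and GWI 5 just below the Control median. Pln fell by 0.98 on the log2 scale (SE 0.27; edgeR adjusted p = 0.0134). Jph2, junctophilin, which holds the store close to the surface membrane, had 47.8, 118 and 250.4 CPM in Control and 39.7, 59.7 and 130.4 in GWI, a change of -0.89 (SE 0.32; edgeR adjusted p = 0.0473). Control 8 and Control 9 lay below its GWI median. Mrvi1, a substrate of the cyclic GMP kinase that damps calcium release, had 32.3, 77.7 and 239 CPM in Control and 32.7, 43.7 and 83.9 in GWI, a change of -0.94 (SE 0.33; edgeR adjusted p = 0.0393). GWI 5 and GWI 8 lay above its Control median. Jph2 lost its call without any 1 of Control 1 to Control 6, GWI 1 to GWI 4, GWI 6 and GWI 7 (adjusted p up to 0.0975), and Mrvi1 without any 1 of Control 1, Control 2, Control 4, Control 6, GWI 1 to GWI 4, GWI 6 and GWI 7 (up to 0.0866). Ryr2, a release channel of the store, had medians of 9.26 and 5.50 CPM and a change of -0.73, and Casq2, calsequestrin, which binds calcium inside it, had 11.2 and 7.67 and a change of -0.26. Neither was called, and Casq2 came to an adjusted p of 0.0449 without GWI 5.

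Myocd, the coactivator myocardin (chr11:65176561-65269989), had 2.16, 3.79 and 12.3 CPM in Control and 1.77, 2.49 and 5.74 in GWI. Control 6 and Control 1 were highest, as for the filament genes, and Control 8 and Control 9 lay below the GWI median. Its log2 fold change was -0.84 (SE 0.35; edgeR adjusted p = 0.0807): it was not called by edgeR, had an unadjusted p under 0.05 and was called lower by DESeq2 and by limma-voom. Without Control 9 or without GWI 5 its adjusted p came under 0.05, down to 0.0361. Srf, which encodes serum response factor, had a log2 fold change of -0.24 and was not called (edgeR adjusted p = 0.389).

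Per length, the actins and the light chain Myl9 had the highest levels. Levels per kilobase of annotated exon, scaled to the same total in each mouse, placed Myl9 first in 12 mice and Actg2 first in 5. The Control medians on this scale were 3191 for Myl9, 3053 for Actg2, 2527 for Acta2, 1513 for Csrp1, 1117 for Tagln and 1115 for Des. The GWI medians of the same genes were 1408, 1357, 1200.1, 737, 423 and 488. At the other end stood Myocd with a median level per length of 1.85 in Control and 1.12 in GWI, and Ryr2 with 0.925 and 0.570. These levels rest on the union of all annotated exons, and isoform use was not analysed here.

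The 35 genes varied together among mice of the same group. Over the 595 pairs of genes, the median Pearson r of log2 CPM was 0.89 across the 9 Control mice and 0.88 across the 8 GWI mice, and 0 pairs had a negative r in either group. The points of each correlation are mice, and both genes of a pair share the library, its depth and the piece of tissue. In Control, Flna and Csrp1 were closest (r = 0.998) and Fhl1 and Casq2 least alike (r = 0.27). In GWI, Actg2 and Tagln were closest (r = 0.997) and Cav1 and Casq2 least alike (r = 0.11). Against the mean of the other 34 genes, r exceeded 0.9 for 27 genes in Control and 26 in GWI.

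The same mice set the extremes of most genes. Control 6 was the highest Control mouse in 26 genes and Control 1 in 8, while Control 9 was the lowest in 19 and Control 8 in 15. In GWI, GWI 5 was highest in 32 genes and GWI 3 lowest in 24. Control 8 lay below the GWI median in 22 genes, Control 9 in 17 and no other Control mouse in more than 3. GWI 5 lay above the Control median in 18 genes and GWI 8 in 7. The coefficient of variation (SD over mean) of the summed level was 52.4% in Control and 40.0% in GWI, and without GWI 5 the latter was 26.6%. For single genes its median was 52.6% in Control and 38.2% in GWI, and it was larger in Control in 29 of the 35. In Control it ran from 19.5% for Casq2 to 74.6% for Synm, and in GWI from 12.0% for Ldb3 to 70.8% for Itga8.

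Whether any gene moved apart from the others was asked by a fit in which the summed counts of the 35 genes took the place of the library size. On this relative scale Vcl was the 1 member of 35 that was called in either direction, where 0.0424% of all tested genes fell and 23.1% rose. This scale centres the 35 genes near 0 and lifts the other genes by its making, so it compares the 35 genes with each other only. Relative to the sum, Vcl rose by 1.01 on the log2 scale (SE 0.24; edgeR adjusted p = 0.00655). Vcl made up 0.259% of the summed level in Control and 0.521% in GWI, so its own part in the reference was small. Of the 35 genes, 31 changed by at most 0.4 either way relative to the sum. Fhl1 (0.64, SE 0.29), Ldb3 (0.58, SE 0.31) and Filip1l (0.54, SE 0.28) came next after Vcl and were not called. Without Control 9 these 3 were called together with Vcl, and with Control 9 and Control 8 both left out, as chosen after the data had been seen, Casq2 was added to them. Each gene is part of its own reference, with Myh11 the largest share at 12.7% in Control and 12.1% in GWI. With Myh11, Tpm1 and Acta2 taken out of the sum, Vcl was again the only member called.

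The strand setting of the counting is not stated, so it is open how reads in exon bases shared with a neighbour on the other strand were assigned, to 1 of the genes or to none. In the annotation, 11 of the 35 genes share exon bases with another gene, 10 of them with a gene on the opposite strand. Of the exon bases of Vcl, 25.52% overlap Ap3m1, which encodes a subunit of an adaptor of vesicle traffic. Ap3m1 had a Control range of 62.2 to 198 CPM and a GWI range of 74.1 to 96.8, with a log2 fold change of -0.12 (edgeR adjusted p = 0.662), and Control 9, where Vcl was lowest, had its highest level. Antisense or noncoding genes overlap 62.42% of the exon bases of Tagln, 59.59% of Pln and 16.3% of Smtn. The part of these overlaps in the counts was not tested.

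Promoter sequences are shown because the CArG box is the element through which serum response factor and myocardin act on genes of this kind. RefSeq promoters of the build GRCm38.p6, from 250 bases before to 50 bases after a gene's start, were matched by symbol for 31 of the 35 genes, as 41 windows of 300 bases, and those of Actg2, Myh11, Tagln and Myocd were not matched. The CArG box has CC, then A or T at each of 6 positions, then GG, and as it reads alike on both strands a search of a single strand covers both. It stood in 7 windows (17.1%) of 6 genes: Myl9, Vcl, Dmd, Filip1l, Ldb3 and Fhl1. Of all 32851 promoters, 535 (1.63%) held it, and of 85 windows of the partner genes 5 (5.88%). After the values had been seen it was noticed that Vcl, Filip1l, Ldb3 and Fhl1, which changed least, were 4 of the 6, while Myl9 and Dmd fell. A match is a description of the sequence and neither shows that a factor binds there nor why a gene changed. Filip1l, Fhl1 and Dmd each have another window, from another start, that holds no box and is not printed. Windows are printed 5′ to 3′ on the strand of the gene, with the box in capitals. The first is that of Vcl, the gene that moved apart from the others (chr14:20929148-20929447, plus strand, box from base -227 of the start).
Vcl: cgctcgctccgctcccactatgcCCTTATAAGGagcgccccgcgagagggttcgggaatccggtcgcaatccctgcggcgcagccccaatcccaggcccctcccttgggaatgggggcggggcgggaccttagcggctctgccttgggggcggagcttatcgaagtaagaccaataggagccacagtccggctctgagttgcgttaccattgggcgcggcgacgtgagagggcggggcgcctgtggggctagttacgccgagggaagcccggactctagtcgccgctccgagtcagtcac
The window of Fhl1, whose medians were nearly the same in both groups, has the box from base -102 (chrX:56779433-56779732, plus strand).
Fhl1: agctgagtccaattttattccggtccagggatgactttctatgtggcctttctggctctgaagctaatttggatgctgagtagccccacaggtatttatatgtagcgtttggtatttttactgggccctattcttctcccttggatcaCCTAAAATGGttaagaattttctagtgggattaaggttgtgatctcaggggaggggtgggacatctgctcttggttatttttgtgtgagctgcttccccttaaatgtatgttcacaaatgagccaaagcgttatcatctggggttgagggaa
In Filip1l the box begins at base -62 and has the same bases as in Vcl (chr16:57548992-57549291, plus strand).
Filip1l: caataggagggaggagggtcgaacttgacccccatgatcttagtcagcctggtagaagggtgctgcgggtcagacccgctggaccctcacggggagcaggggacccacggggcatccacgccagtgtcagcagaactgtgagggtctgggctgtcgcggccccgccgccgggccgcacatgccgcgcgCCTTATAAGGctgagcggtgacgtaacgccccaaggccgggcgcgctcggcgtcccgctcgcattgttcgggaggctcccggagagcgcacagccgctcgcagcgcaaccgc
In Ldb3 it begins at base -109 of the start of this window, and an overlapping window with another start holds the same copy (chr14:34588558-34588857, minus strand).
Ldb3: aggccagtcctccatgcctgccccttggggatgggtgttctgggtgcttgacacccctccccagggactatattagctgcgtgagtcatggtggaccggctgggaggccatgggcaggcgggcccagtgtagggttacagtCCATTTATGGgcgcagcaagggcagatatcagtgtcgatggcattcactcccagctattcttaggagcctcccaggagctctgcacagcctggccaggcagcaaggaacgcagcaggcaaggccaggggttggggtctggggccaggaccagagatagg

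The boxes of Myl9 and Dmd are shown for comparison, as these genes fell in GWI. The window of Myl9 (chr2:156775214-156775513, plus strand) has the box from base -161 and a looser form with 1 C or G among the middle 6 bases from base -99, both in capitals.
Myl9: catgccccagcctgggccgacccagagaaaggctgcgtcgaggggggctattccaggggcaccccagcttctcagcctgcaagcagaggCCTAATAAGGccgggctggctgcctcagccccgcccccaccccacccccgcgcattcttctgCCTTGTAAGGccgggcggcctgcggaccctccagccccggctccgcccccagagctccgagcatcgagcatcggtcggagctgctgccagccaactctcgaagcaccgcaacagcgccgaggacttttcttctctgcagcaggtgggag
The window of Dmd (chrX:82948620-82948919, plus strand) has the box from base -98.
Dmd: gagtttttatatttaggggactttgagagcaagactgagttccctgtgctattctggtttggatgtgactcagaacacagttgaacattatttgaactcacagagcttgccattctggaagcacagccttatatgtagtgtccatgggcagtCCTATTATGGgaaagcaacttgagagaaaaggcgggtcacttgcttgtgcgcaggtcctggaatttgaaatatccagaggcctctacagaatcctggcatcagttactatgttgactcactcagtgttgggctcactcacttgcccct
The looser form stood in 6 of the 41 windows (14.6%), in Acta2, Myl9, Synm, Pdlim3 and Jph2, and in 2792 of all promoters (8.5%). Acta2 holds it from base -84 and again from base -34 (chr19:34255324-34255623, minus strand), and no strict box, as its window shows.
Acta2: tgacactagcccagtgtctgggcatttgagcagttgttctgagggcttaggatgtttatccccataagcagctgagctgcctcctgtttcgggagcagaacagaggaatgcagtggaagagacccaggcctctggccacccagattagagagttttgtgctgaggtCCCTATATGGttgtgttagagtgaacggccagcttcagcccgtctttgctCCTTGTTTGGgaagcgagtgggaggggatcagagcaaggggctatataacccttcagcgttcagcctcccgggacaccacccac

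Other genes of contraction, 89 partners from lists by function, moved less and in both directions. Of these, 26 fell and 7 rose by edgeR, where 13.5% of all tested genes fell and 13.4% rose, and the median change was -0.44 (log2). In the nitric oxide pathway, which relaxes gut muscle through cyclic GMP, 3 of 5 fell: Gucy1a1 (-0.82) and Gucy1b1 (-0.85), the subunits of the nitric oxide receptor, and Prkg1 (-0.98), the cyclic GMP kinase. Of 13 genes of membrane excitation and calcium 4 fell, among them Cacna1c (-1.05), the pore of the L-type calcium channel, and Cacna2d1 (-0.87), a subunit beside it, while Stim1 (0.45), a calcium sensor of the store, rose. Of 12 genes of the dystrophin complex and caveolae 5 fell, such as Sspn (-1.07), while Dag1 (0.74), the dystroglycan that binds Dmd, rose. Dag1 had 89.8 to 191 CPM in Control and 237 to 300.1 in GWI. The share of all tested genes with every GWI mouse above every Control mouse was not counted. Of 9 transcription regulators Mef2c (-0.94) and Elk1 (-0.30) fell and Mkl2 (0.33) and Mef2d (0.54) rose. Of 19 genes of adhesion and the dense plaque, where Vcl also acts, 3 fell, a share close to that of all tested genes. These were Nexn (-0.88), Fermt2 (-0.93) and Tgfb1i1 (-0.99). Only Itga7 (0.36) rose, a share below that of all tested genes.

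Of 13 other muscle genes 6 fell, such as the small heat shock gene Hspb6 (-1.10) and the calponin gene Cnn3 (-0.60), and Tagln2 (0.47) rose. Of 6 receptor genes, with P2ry1 the most abundant, edgeR called 0, while 3 had an unadjusted p under 0.05, DESeq2 called 2 lower and limma-voom 4. Of all 14146 tested genes, edgeR called 1903 lower, DESeq2 2444 and limma-voom 4180. The number of risen partners was 3 with upper-quartile factors and 3 with library size alone, all among the 7, and 4 without any 1 of Control 5, Control 7, Control 8, GWI 3, GWI 4, GWI 5 and GWI 7. With 1 mouse left out, the number fallen was 2 to 7 for the dystrophin complex and caveolae, 2 to 6 for membrane excitation and calcium, 3 to 7 for adhesion, 5 to 9 for other muscle genes, 1 or 2 for transcription and 0 to 3 for receptors. The number risen was then 0 to 2 for adhesion and for other muscle genes and 1 to 3 for transcription.

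Genes outside these lists followed the 35 closely among mice. Of 14022 other genes, 328 had a Pearson r above 0.9 with the mean of the 35 genes over 17 mice, after centring within each group. The closest were Dmpk (0.993), Eml1 (0.990), Adamts8 (0.989), Speg (0.986), Clmp (0.985), St3gal2 (0.985), Nfatc4 (0.982), Popdc2 (0.982), Marveld1 (0.982) and Adcy5 (0.980). Of these 10, 5 fell in GWI, where 13.5% of all tested genes fell. Each point is a mouse whose values come from the same library and tissue piece. Dmpk, a kinase of muscle, had a log2 fold change of -0.96 (SE 0.33; edgeR adjusted p = 0.0373), close to the median of the 35 genes.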

How the data were processed

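The authors deposited 1 table of raw counts of unique gene hits, a whole number per gene and mouse. By the submitters' processing notes, Trimmomatic 0.36 trimmed the reads and STAR 2.5.2b mapped them to GRCm38. Mapping and counting were not repeated. In R 4.3.3, genes were filtered by filterByExpr and libraries scaled by TMM, and a robust quasi-likelihood model of edgeR 4.0.16 (glmQLFit, glmQLFTest) with the group as its term was fitted to all 17 mice. Adjusted p-values (Benjamini-Hochberg) cover 14146 genes. Fold changes are GWI over Control, with standard errors derived from the test's F value. Correlations used log2 CPM with a prior count of 2. Positions and exon lengths are from GENCODE M21.

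The members and lists were chosen with earlier results of these data known. Full values are given for every called member and the most abundant member of each role. Log2 fold changes are given for some called partner genes, chosen among the 4 with the smallest p in each direction of a list. Called markers and the most abundant marker of each reported list are named, most of them without values of their own. Correlations are given for the 10 genes most like the members. Other members are named by their role, and Srf and Ap3m1 for the comparison with a member. Alternatives were DESeq2 1.42.0 size factors, upper-quartile scaling, unscaled library sizes, the DESeq2 Wald test, limma-voom with quality weights (limma 3.58.1), no robust estimation, no filter, a minimum of 10 counts in every mouse, a block for the replicate number, an epithelial score as a covariate, each mouse left out, and other thresholds. Leaving out the 2 mice with the highest mitochondrial share, and that share as a covariate, were chosen after seeing the data. Depth was 16293537 to 20741212 counts per mouse. Reads carry no molecular identifiers and are not independent, and counting error is therefore less than the whole technical noise. The results of 1 list of cell type markers and 1 list of partner genes are not reported here.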

Additional observations from a re-analysis of the deposited data

Results flagged for a closer look

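In each gene and group, and for the summed level, the gap between an extreme mouse and its nearest neighbour was compared with the whole range of the group. In 12 of 72 such sets of values the gap was larger than Dixon's limit for that number of mice. For values of a normal distribution, about 1 in 20 such sets would pass the limit by chance. The gaps were taken on CPM without a log, so that rate may not hold here. The sets are also not independent, because the same mouse is the extreme in most genes. All 12 are a high value of Control 6 or of GWI 5.

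Control 6 was far above the next Control mouse in 5 genes. Mylk was at 3095 CPM beside 1887 in the next mouse, Pgm5 at 700.2 beside 309, Dmd at 92.8 beside 50.7, Ldb3 at 43.5 beside 26.7 and Mrvi1 at 239 beside 136. GWI 5 was far above the next GWI mouse in 7 genes. Des was at 2383 CPM beside 1076, Cnn1 at 1206 beside 498, Cald1 at 593 beside 356 and Synm at 523 beside 239. Filip1l was at 123 beside 84.9, Vcl at 73.5 beside 57.3 and Itga8 at 13.4 beside 6.77.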

How the results depend on the processing

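The number of members called lower was 21. It was 19 to 26 with the other scalings, the DESeq2 Wald test, no robust estimation, at least 10 counts in every mouse and the epithelial score, 14 with no filter, 32 with limma-voom, 9 to 29 with 1 mouse left out, 8 at the study's threshold of an unadjusted p under 0.05 with an absolute log2 fold change over 1, and 4 at an adjusted p under 0.01. Over all 14146 tested genes, edgeR called 1903 lower, the DESeq2 Wald test 2444 and limma-voom 4180. With the replicate number as a block, 10 members were called lower, of which 9 were among the 21. The labels do not define the replicate number as a pairing. Between mice with the same number, deviations from the group means had correlations of -0.51, -0.05, 0.02, -0.00, 0.11, -0.12, -0.12 and -0.50. What the number stands for was not tested. The short names of some mice share a first part that no source used here defines (it may be a cage, a litter or a day). No fit modelled such a grouping, and its effect on the calls was not tested. In the 2 fits chosen after seeing the data it was 29 without the 2 mice with the highest mitochondrial share and 26 with that share as a covariate. No member was called higher in any of these fits, and their median log2 fold change lay between -1.17 and -0.70.

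Of the 89 partners, 26 were called lower as reported, and 55 with limma-voom, 16 with the block, 48 without those 2 mice, 41 with their share as a covariate, 5 at the study's threshold, 6 at an adjusted p under 0.01 and 18 to 39 with 1 mouse left out. The 7 called higher were 3 with upper-quartile factors, 3 with library size alone, 15 with limma-voom, 4 with no filter, 4 with the block, 2 with the epithelial score, 4 with the mitochondrial share, 0 at the study's threshold, 1 at an adjusted p under 0.01 and 4 to 10 with 1 mouse left out. Over all tested genes, limma-voom called 4180 lower and 3911 higher, beside 1903 and 1889 by edgeR. Relative to the summed members, the 1 call was 1 to 4 with 1 mouse left out and 5 without those 2 mice. The coefficient of variation was 26.6% to 42.5% in GWI and 46.1% to 56.9% in Control with 1 mouse left out. With 1 mouse left out, the log2 fold change of Vcl ran from -0.18 to 0.13 and that of Fhl1 from -0.27 to 0.019: Vcl turned to 0.13 without Control 1 and 0.11 without Control 6, and Fhl1 to 0.019 without Control 1. The cause was not tested.

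Upper-quartile factors moved the median of all genes from -0.06 to -0.15 and the share of lower genes among all calls from 50.2% to 71.1%, and the block moved that share to 36.9%. Of the 9 members called in all 17 fits without 1 mouse, 8 were called in all 12 other fits, and Cav1 in 11. Depth limits Myocd, Ryr2 and Itga8 most among the 35 genes.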

Other observations

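Markers of some further tissues gave the following values. Of 9 enteric neuron markers, with Nos1 the most abundant, 0 were called by edgeR, 0 had an unadjusted p under 0.05, 0 were called by DESeq2 and 8 were called lower by limma-voom, and their summed level was 76.9 to 647 CPM in Control and 106 to 438 in GWI. By limma-voom, 4180 of all 14146 tested genes were called lower, beside 1903 by edgeR. Of 3 markers of interstitial cells of Cajal, with Kit the most abundant, edgeR called 0, 1 had an unadjusted p under 0.05, and DESeq2 and limma-voom each called 1 lower, with a sum of 117 to 219.5 CPM in Control and 105 to 224 in GWI. Without 1 mouse, the number called was 0 or 1.

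Of the small-intestine markers Lct and Apoa4 had at most 5 and 12 counts in any library. Of the 3 tested, with Apob the most abundant, 1 fell, where 13.5% of all tested genes fell. This was Fabp6, a bile acid binding protein of the ileum, which reached 314 CPM in Control 7 beside a Control median of 5.98. The list summed to 135 to 859.9 CPM in Control and 297 to 463 in GWI. Of 4 adipocyte markers, with Fabp4 the most abundant, 1 rose (Cidec), where 13.4% of all tested genes rose. The sum was 33.5 to 199.97 CPM in Control and 67.0 to 534 in GWI. The number of risen adipocyte markers was 2 without Control 1 and 0 without any 1 of Control 2, Control 3, Control 6, Control 7, Control 8, GWI 3, GWI 4, GWI 7 and GWI 8. Of 3 cardiac markers tested, with Tnnt2 the most abundant, 0 were called by edgeR, 0 at an unadjusted p under 0.05, 0 by DESeq2 and 1 by limma-voom. The whole list of 6 had a sum of 7.14 to 31.4 CPM in Control and 6.62 to 23.2 in GWI. Markers of mesothelium (3 tested, Upk3b the most abundant) summed to 2.86 to 25.7 CPM in Control and 2.64 to 17.003 in GWI, and those of leukocytes (4 tested, Ptprc the most abundant) to 12.5 to 29.1 and 12.7 to 21.2. In these lists edgeR called 0, 0 had an unadjusted p under 0.05, DESeq2 called 0, and limma-voom called 0 and 1.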
